A study of Mus musculus with 8 samples.

Results

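Expression of 8 genes of the cholesterol synthesis programme was examined in white adipocytes of mice with and without YAP and TAZ, fed a lean or an obesogenic diet. The genes are the synthesis enzymes Hmgcs1, Idi1, Fdft1, Sqle, Lss and Cyp51, the sterol sensor Insig1 and the transcription factor gene Srebf2. They were taken by name from the gene table, in which each has 1 row among 30387, and all 8 had enough reads to be tested among 18800 genes. The group is named for synthesis and uptake, but none of the 8 encodes an uptake receptor. Receptors such as Vldlr were therefore followed in a separate list.

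RNA-seq was done on adipocytes isolated from epididymal (visceral) white adipose tissue after 4 weeks on a standard diet (SD, normal chow) or a Western-type high-fat diet (HFD). The 4 groups had 2 libraries each, and each library came from a different mouse: wild-type littermates (WT) on SD, WT on HFD, and Ad-Yap/Taz-KO (KO) on SD and on HFD. The KO mice carry Adipoq-Cre with floxed alleles of both genes (Yap fl/fl and Taz fl/fl). This Cre is constitutive, driven by the adiponectin promoter, and deletes the genes in adipocytes, so other cell types in the preparation keep them. The labels put the age at the start of the diets at 5 weeks, and the methods a week later. The methods name floxed littermates treated with tamoxifen as controls, a treatment used for the study's inducible line, and do not say whether the WT mice here carried floxed alleles.

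Cholesterol is built from acetyl-CoA. Hmgcs1 makes HMG-CoA, from which mevalonate is formed. Idi1 isomerises the isoprene unit made from mevalonate, Fdft1 joins farnesyl units to squalene, Sqle oxidises squalene, Lss closes the first sterol ring system to give lanosterol, and Cyp51 removes a methyl group from lanosterol on the way to cholesterol. When sterols in the endoplasmic reticulum are scarce, SCAP carries the SREBP-2 precursor, the product of Srebf2, to the Golgi, where it is cut to release a transcription factor for these genes. Insig proteins hold SCAP back when sterols are plentiful, and Insig1 is itself a target of SREBP, so its mRNA rises and falls with the pathway. Adipocytes store a large pool of free cholesterol around their lipid droplet, most of it taken up from lipoproteins.

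SREBP binds sterol regulatory elements, often beside a CCAAT box bound by NF-Y, and these motifs were looked for on both strands of the RefSeq promoters (GRCm38.p6, from 250 bases before to 50 after the start), which matched 6 of the 8 genes. The promoters of Hmgcs1 and Lss, which followed diet and genotype below, and of Srebf2, which did not, are shown as the 250 bases before the start, 5′ to 3′ on the gene's strand. Capitals mark CCAAT boxes, read on either strand, and in Hmgcs1 also the sterol regulatory element.
Hmgcs1 (chr13:119690101-119690350, + strand): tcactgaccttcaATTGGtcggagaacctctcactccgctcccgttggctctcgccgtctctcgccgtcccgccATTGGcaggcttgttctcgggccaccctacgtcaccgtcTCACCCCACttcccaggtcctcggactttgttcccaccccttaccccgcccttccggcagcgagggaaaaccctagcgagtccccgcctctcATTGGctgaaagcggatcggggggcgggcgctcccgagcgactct
Lss (chr10:76531355-76531604, + strand): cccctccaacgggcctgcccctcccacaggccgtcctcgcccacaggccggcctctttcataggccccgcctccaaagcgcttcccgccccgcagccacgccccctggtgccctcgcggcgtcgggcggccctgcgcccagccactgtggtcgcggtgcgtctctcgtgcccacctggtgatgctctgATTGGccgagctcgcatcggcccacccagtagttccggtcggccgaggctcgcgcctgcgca
Srebf2 (chr15:82147019-82147268, + strand): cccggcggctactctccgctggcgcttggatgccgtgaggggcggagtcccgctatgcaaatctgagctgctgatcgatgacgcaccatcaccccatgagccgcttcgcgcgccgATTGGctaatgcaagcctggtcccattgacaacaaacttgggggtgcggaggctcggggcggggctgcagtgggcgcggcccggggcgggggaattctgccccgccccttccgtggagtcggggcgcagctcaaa

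CCAAT was present in 6 of 6 promoters, against 37.4% of 32851 promoters of all genes. TCACNCCAC was present in 1 of 6, that of Hmgcs1, where it began 137 bases before the start, against 1.24% of all promoters. Only exact matches to these letters were sought, so other forms of a sterol regulatory element would not be seen. GGAATG, the core bound by the TEAD factors through which YAP and TAZ act, was in 0 of 6 against 14.7% of all, which says only that these letters are not in this window. The motifs do not overlap each other in the printed sequences.

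The values are normalized counts, that is, reads on the exons of a gene divided by a size factor for each library. Reads counted on genes were estimated at between 14.0 M and 22.3 M per library. Both targeted genes were lower in every KO library than in every WT library. Wwtr1, which encodes TAZ, read 5594 and 4743 in WT on SD, 2441 and 1957 in KO on SD, 7121 and 6807 in WT on HFD, and 2060 and 2707 in KO on HFD. Yap1 had 2333 to 2776 in the WT libraries and 1549 to 2068 in the KO libraries, and on HFD its difference between the genotypes did not pass the test described below (−0.42 on the log2 scale, limma adjusted p = 0.059). The WT HFD libraries lay much closer to each other than the other pairs did: for genes of 1000 to 5000 reads, the squared difference within the pair was 5.63 times that of counting noise, against 17.6 to 49.9 times in the other groups. Their separate values are printed and no SD is given for them. Where treating them as 1 sample ends a call described below, this is stated.

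The libraries also differed in cell type markers. The summed normalized count of 10 adipocyte markers (Adipoq, Plin1, Pparg and others) was 211752 and 218344 in WT on SD, 169777 and 245934 in KO on SD, 384146 and 375938 in WT on HFD, and 190080 and 95513 in KO on HFD. That of 8 macrophage markers (Adgre1, Cd68, Csf1r and others) was 4785 and 4738, 28079 and 15885, 2263 and 2182, and 29731 and 28388 in the same order. The adipocyte marker sum was thus highest and the macrophage marker sum lowest in WT on HFD. The adipocyte markers did not all move alike. Lep read 10493 and 19324 in WT on SD, 72885 and 73642 in WT on HFD, and 7257 and 1545 in KO on HFD. Between the genotypes on HFD, 9 of the 10 were lower by the test described below, and Fabp4 did not pass it (−0.32 on the log2 scale, limma adjusted p = 0.41). KO on HFD held the library with the fewest adipocyte marker counts and the highest macrophage marker sums. In the same order of groups, the sum of 6 fibroblast and progenitor markers was 33831 and 27913, 49337 and 31437, 21008 and 21357, and 67155 and 74975. That of 6 endothelial markers was 27002 and 22053, 20475 and 11406, 13738 and 14131, and 17669 and 27401. In bulk samples, fewer adipocytes and less of an RNA in each adipocyte cannot be told apart. No marker of these lists was at 0 in all libraries.

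**Figure D1:**
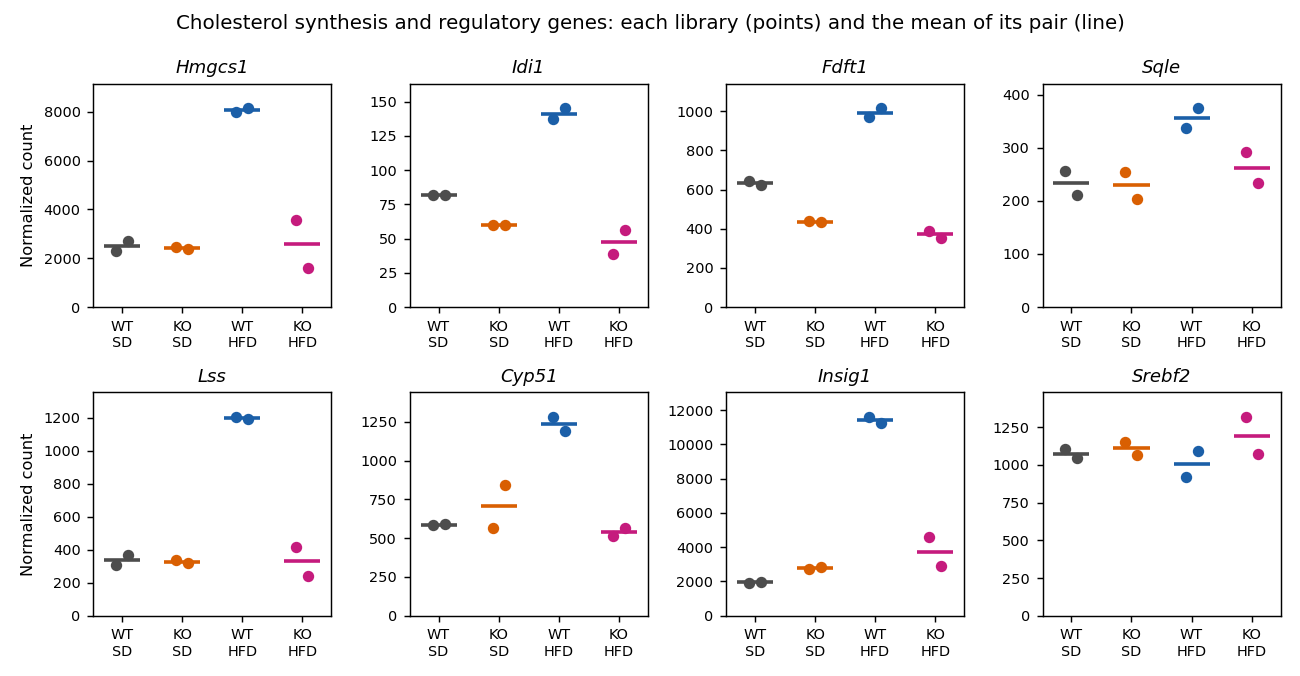
Normalized count (vertical axes, from 0) of each of the 8 genes in each library, in groups along the horizontal axes (KO is Ad-Yap/Taz-KO). Points are libraries and lines are the means of the 2 points. In 7 of 8 panels both WT HFD points lie above the other 6, and Srebf2 shows no such separation. The share of all genes with this order was not counted.

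The first enzyme, Hmgcs1 (ENSMUSG00000093930, chr13:119690462-119708086, + strand, GRCm38), read 2307 and 2694 in WT on SD, 2458 and 2397 in KO on SD, 8013 and 8139 in WT on HFD, and 3586 and 1596 in KO on HFD. The other 3 groups overlapped one another and WT on HFD stood above all of them. The KO HFD libraries were the most unequal pair for this gene.

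Idi1 (ENSMUSG00000058258, chr13:8885501-8892451, + strand) had the lowest level per kilobase of exon in every group. It read 82 and 82 in WT on SD, 60 and 60 in KO on SD, 137 and 145 in WT on HFD, and 39 and 56 in KO on HFD. Its groups did not overlap, in the order WT HFD, WT SD, KO SD, KO HFD. Of the 75-base words of its transcripts, 23.6% also occur in other genes, among them pseudogenes, so its level is uncertain.

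Fdft1 (ENSMUSG00000021273, chr14:63145153-63177793, − strand) had the same order of groups, again without overlap. It read 645 and 624 in WT on SD, 437 and 435 in KO on SD, 970 and 1014 in WT on HFD, and 390 and 352 in KO on HFD. Exons of Ctsb on the opposite strand cover 18.3% of its exon bases, and 21.8% of its 75-base words also occur in other genes. Whether the counting used strand is not given in the sources used here, so its level too is uncertain.

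Sqle (ENSMUSG00000022351, chr15:59315077-59331192, + strand) varied least among the enzymes, with 256 and 211 in WT on SD, 255 and 204 in KO on SD, 337 and 374 in WT on HFD, and 292 and 233 in KO on HFD. Only WT on HFD stood clear of the other groups, which overlapped.

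Lss (ENSMUSG00000033105, chr10:76531588-76557138, + strand) read 308 and 370 in WT on SD, 338 and 318 in KO on SD, 1204 and 1195 in WT on HFD, and 419 and 243 in KO on HFD. As with Hmgcs1, WT on HFD stood apart and the rest overlapped.

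Cyp51 (ENSMUSG00000001467, chr5:4081145-4104746, − strand) read 583 and 590 in WT on SD, 565 and 844 in KO on SD, 1280 and 1193 in WT on HFD, and 513 and 566 in KO on HFD. Here the unequal pair was KO on SD, and WT on HFD was again above all others.

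Among the regulators, Insig1 (ENSMUSG00000045294, chr5:28071363-28078662, + strand) had the highest level per kilobase of exon in every group. It read 1916 and 1999 in WT on SD, 2757 and 2869 in KO on SD, 11580 and 11254 in WT on HFD, and 4565 and 2924 in KO on HFD. Its groups did not overlap, and WT on SD was the lowest of them.

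Srebf2 (ENSMUSG00000022463, chr15:82147266-82205376, + strand) read 1102 and 1044 in WT on SD, 1154 and 1064 in KO on SD, 920 and 1093 in WT on HFD, and 1316 and 1069 in KO on HFD. All 4 groups overlapped in one range.

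Per kilobase of exon, the levels in WT on HFD (means of the deposited values of the pair) ran from 40.2 normalized counts for Idi1 and 64.1 for Sqle to 1758 for Hmgcs1 and 3691 for Insig1. In KO on HFD the ends of this scale were 13.6 for Idi1 and 1211 for Insig1. Exon lengths are those of all annotated exons of a gene, which for Lss come to 10787 bases and lower its value per kilobase to 111.2.

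In WT adipocytes, the high-fat diet was accompanied by higher mRNA of 5 of the 8 genes. With limma across all genes, a gene was called when its Benjamini-Hochberg adjusted p was at most 0.05 and its log2 fold change at least 0.59 in size. Fold changes are on the log2(normalized count + 1) scale, ± standard error of the fit. Insig1 rose most (2.54 ± 0.19, a 5.83-fold higher level, limma adjusted p = 2.5e-05), then Lss (1.83 ± 0.24, adjusted p = 0.00066), Hmgcs1 (1.70 ± 0.27, adjusted p = 0.002), Cyp51 (1.07 ± 0.20, adjusted p = 0.0042) and Fdft1 (0.64 ± 0.17, adjusted p = 0.021). In this comparison 8.74% of all genes were called higher and 9.22% lower, and no member was called lower. The median log2 fold change was 0.92 over the members and −0.08 over all genes tested.

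The remaining members missed the threshold between the diets. Idi1 differed by 0.77 ± 0.36 (limma adjusted p = 0.15), with a 95% interval from −0.01 to 1.56, and Sqle by 0.61 ± 0.24 (adjusted p = 0.086), from 0.10 to 1.12. Srebf2 differed by −0.10 ± 0.17 (adjusted p = 0.72), with an interval from −0.46 to 0.27. Both WT HFD libraries nevertheless exceeded both WT SD libraries for Idi1 and Sqle, and Sqle was called (0.61, limma adjusted p = 0.043) when the WT libraries were fitted alone.

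With the WT HFD libraries counted as 1 sample, Insig1 was at 2.54, Lss at 1.83, Hmgcs1 at 1.70, Cyp51 at 1.07 and Fdft1 at 0.64. The calls of Cyp51 and Fdft1 ended there, and also without the first WT SD or the first WT HFD library. These fits leave 1 sample in a group and called fewer of all genes too, so lost calls were not particular to the members. Scaled to the same sum of adipocyte markers, an alternative chosen after seeing the data that moved the median of all genes to −0.86, Insig1 alone stayed called (1.72, limma adjusted p = 0.0012), where 0.473% of all genes were called higher and 16.7% lower, and the values of Lss (1.01, adjusted p = 0.09) and Hmgcs1 (0.87, adjusted p = 0.072) kept their sign. Scaled to the same total, the call of Fdft1 ended (0.23, limma adjusted p = 0.35).

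Loss of YAP and TAZ on HFD was accompanied by lower mRNA of 6 of the 8 genes. These values share the WT HFD libraries with the diet comparison above. Lss fell by 1.91 on the log2 scale (SE 0.24, 3.75-fold lower, limma adjusted p = 8.3e-05), Hmgcs1 by 1.75 (SE 0.27, 3.37-fold lower, adjusted p = 0.00039) and Insig1 by 1.64 (SE 0.19, 3.12-fold lower, adjusted p = 3.4e-05). Idi1 fell by 1.57 (SE 0.36, limma adjusted p = 0.0051), Fdft1 by 1.42 (SE 0.17, adjusted p = 5.3e-05) and Cyp51 by 1.20 (SE 0.20, adjusted p = 0.00064). In this comparison 15.1% of all genes were called lower and 17.1% higher. The median log2 fold change was −1.49 over the members and 0.09 over all genes tested.

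Sqle, the oxidation step after squalene, had −0.44 ± 0.24 (limma adjusted p = 0.17, 95% interval from −0.95 to 0.07). Srebf2 had 0.24 ± 0.17 (adjusted p = 0.29, from −0.12 to 0.61). Within the programme, then, the mRNA of the precursor factor did not pass the test while that of 5 enzymes and of the sensor did, but the difference between Srebf2 and the other genes was not itself tested.

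The 6 calls were made again without any 1 of the 8 libraries and with the WT HFD pair counted as 1 sample. They were lost when libraries were scaled to the same sum of adipocyte markers: Cyp51 was then at 0.30, Fdft1 at 0.08, Idi1 at −0.09, Insig1 at −0.15, Hmgcs1 at −0.26 and Lss at −0.41, with limma adjusted p from 0.38 to 0.89. This scaling moved the median of all genes to 1.55, with 58.0% of all genes called higher and 0.878% lower. On that scale Srebf2 was called higher (1.74, adjusted p = 0.00052), and it was also called higher with libraries scaled to the same total (0.63, adjusted p = 0.011), where the median of all genes was 0.47 and 24.6% were called higher. The 6 genes were thus lower in the KO HFD libraries on the authors' scaling, and none passed the test relative to adipocyte marker RNA, where intervals were wide: that of Hmgcs1 ran from −0.96 to 0.44.

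**Figure D2:**
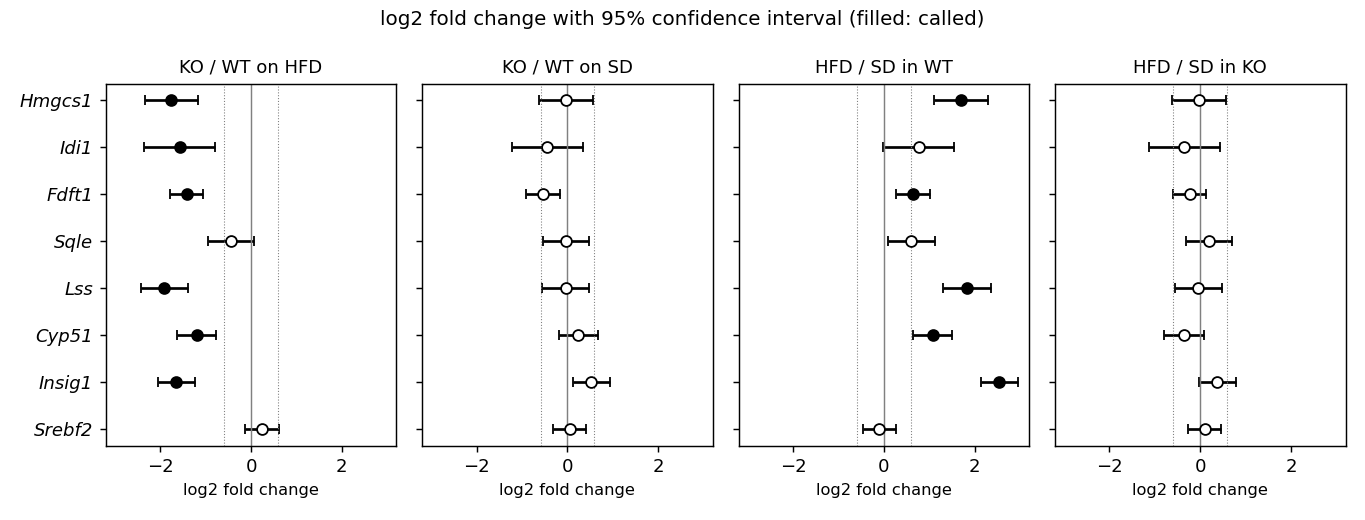
Fold change (log2, horizontal axes) of the 8 genes in the 4 comparisons, with 95% confidence intervals from limma. Filled points were called, and dotted lines mark ±0.59. The 6 filled points on HFD lie to the left of 0 in the knockout comparison, the 5 filled points of the diet comparison in WT lie to the right, and the other panels hold none.

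The ratio of each gene to these markers was also taken per library. Insig1 had 9.05 and 9.16 normalized counts per 1000 of adipocyte markers in WT on SD, 16.2 and 11.7 in KO on SD, 30.1 and 29.9 in WT on HFD, and 24.0 and 30.6 in KO on HFD. Relative to these markers, Insig1 on HFD overlapped between the genotypes and lay above all SD libraries. Hmgcs1 had 10.9 and 12.3, 14.5 and 9.75, 20.9 and 21.6, and 18.9 and 16.7 in the same order, so that the HFD libraries of both genotypes exceeded those on SD, and both KO HFD libraries lay below both WT HFD libraries. Lss had the same separation on HFD, with 3.13 and 3.18 in WT and 2.20 and 2.54 in KO. Sqle and Srebf2 separated the other way on HFD: Sqle had 0.88 and 0.99 in WT and 1.54 and 2.44 in KO, and Srebf2 2.40 and 2.91 in WT and 6.92 and 11.2 in KO. For Cyp51 the KO HFD pair (2.70 and 5.93) spanned the WT HFD values (3.33 and 3.17), as it did for Idi1 and Fdft1.

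**Figure D3:**
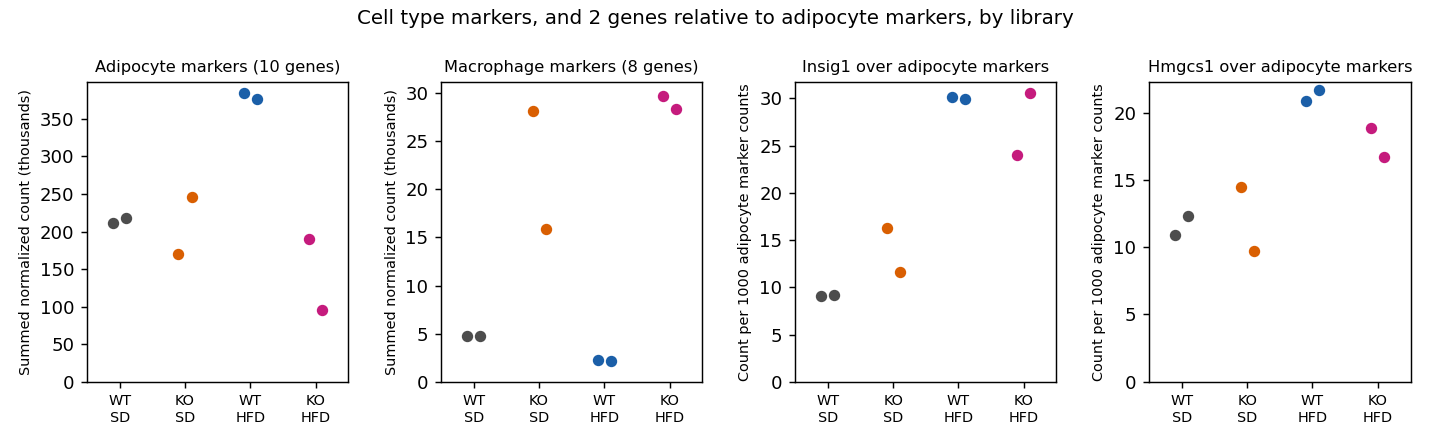
Summed normalized count of 10 adipocyte and 8 macrophage markers (divided by 1000; the left panels), and normalized count of Insig1 and Hmgcs1 per 1000 adipocyte marker counts (the right panels), all from 0. Points are libraries. Adipocyte markers were at 384146 and 375938 in WT on HFD against 190080 and 95513 in KO on HFD, and Insig1 over these markers overlapped between those groups.

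On SD, limma called 0 of the 8 genes between KO and WT, where 3.21% of all genes were called higher and 1.50% lower. At an unadjusted p under 0.05 there were 2, Fdft1 and Insig1, against 3200 of the 18800 genes tested, and no other tool was run. Fdft1 differed by −0.54 ± 0.17 (adjusted p = 0.11) and Insig1 by 0.52 ± 0.19 (adjusted p = 0.16), in opposite directions and each without overlap between the groups. Idi1 also did not overlap (−0.44 ± 0.36, limma adjusted p = 0.59). With 2 libraries against 2, an exact permutation test of such a separation cannot go below p = 0.333. The share of all genes without overlap was not counted. Cyp51 had 0.24 ± 0.20. Hmgcs1, Lss, Sqle and Srebf2 lay between −0.04 and 0.05, and their 95% intervals stayed within −0.63 and 0.55. Adipocyte marker sums overlapped between these groups, whereas macrophage markers did not.

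In KO mice, 0 of the 8 genes were called between HFD and SD by limma. An unadjusted p under 0.05 was found for 0 of them, against 2905 of the 18800 genes tested. All genes gave 0.383% called higher and 0.691% lower. Hmgcs1 and Lss were at −0.02 ± 0.27 and −0.04 ± 0.24, and their 95% intervals, from −0.61 to 0.57 and from −0.56 to 0.49, exclude a rise of the size measured in WT on the authors' scaling. Relative to adipocyte markers they were at 0.58 and 0.56, with intervals from −0.12 to 1.28 and from −0.30 to 1.42 that include the values of WT on that scale (0.87 and 1.01). Insig1 had the largest positive value (0.38 ± 0.19, limma adjusted p = 0.36), and Cyp51 the most negative (−0.36 ± 0.20, adjusted p = 0.41). Adipocyte markers of this group on HFD spanned 95513 to 190080, against 169777 to 245934 on SD.

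The difference between the genotypes' responses was tested as an interaction, which uses the same 8 libraries. It was negative and called for 5 members: Insig1 (−2.17 ± 0.26, limma adjusted p = 0.0014), Lss (−1.86 ± 0.34, adjusted p = 0.0062), Hmgcs1 (−1.72 ± 0.39, adjusted p = 0.013), Cyp51 (−1.43 ± 0.28, adjusted p = 0.0081) and Fdft1 (−0.88 ± 0.24, adjusted p = 0.027). Among all genes, 8.73% were called lower and 8.69% higher. Idi1 had −1.13 ± 0.51 (limma adjusted p = 0.14), Sqle −0.42 ± 0.33 (adjusted p = 0.41) and Srebf2 0.20 ± 0.24 (adjusted p = 0.6). With the WT HFD pair as 1 sample, Insig1 was at −2.17, Lss at −1.86, Hmgcs1 at −1.72, Cyp51 at −1.43 and Fdft1 at −0.88. The calls of Hmgcs1, Cyp51 and Fdft1 ended there. Calls of members also ended without the first WT SD library and without 1 of the WT HFD libraries. These fits leave 1 sample in a group and called fewer of all genes too. Scaled by adipocyte markers, none of the 5 was called, and only Srebf2 was (1.62, adjusted p = 0.03), close to the median of all genes on that scale (1.48), where 26.7% were called higher and 0.144% lower. Scaled to the same total, the call of Fdft1 ended (−0.45, limma adjusted p = 0.22).

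The other steps of the pathway were read from a list of 14 synthesis enzymes. On HFD, 9 of 14 were called lower in KO adipocytes and 1 higher, against 15.1% and 17.1% of all genes, with a list median of −0.99. The largest decrease in this list was that of the sterol desaturase Sc5d, with −2.98 ± 0.21 (limma adjusted p = 7.8e-07). Nsdhl, which acts in demethylation of sterols, had −1.88 ± 0.28 (limma adjusted p = 0.00029). Of the early steps, the mevalonate kinase Mvk (−1.70), the next kinase Pmvk (−1.43) and the thiolase Acat2 (−1.42) were called lower, while Mvd was at −0.59 and Fdps at −0.53, neither called. Relative to adipocyte markers, Sc5d was still called lower (−1.48), which was true of none of the 8 members.

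Sc5d read 1248 and 1529 in WT on SD, 506 and 545 in KO on SD, 4044 and 4131 in WT on HFD, and 663 and 406 in KO on HFD. Both KO libraries lay below both WT libraries on each diet, and Sc5d was the 1 enzyme of the 14 also called on SD (−1.39 ± 0.21, limma adjusted p = 0.0017), where marker scaling ended the call (−1.32).

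1 enzyme outside this pattern was picked after its values were seen. Lbr, a sterol reductase that is also a receptor for lamin in the nuclear envelope, went the other way from the members: with HFD in WT it had −0.88 ± 0.21 (limma adjusted p = 0.012), and it was 0.89 ± 0.21 higher in KO on HFD (adjusted p = 0.0052).

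With the diet in WT, 7 of the 14 enzymes were called higher and 1, Lbr, lower, against 8.74% and 9.22% of all genes, with a list median of 1.02. Nsdhl (1.65 ± 0.28), Dhcr7 (1.64 ± 0.36), which reduces the last precursor of cholesterol, and Sc5d (1.56 ± 0.21) had the largest increases of the list, with limma adjusted p from 0.00074 to 0.0094. Hsd17b7 (1.20), Mvd (1.14), Msmo1 (1.10) and Pmvk (1.01) were called too. In KO mice 0 of 14 were called with the diet by limma, against 0.383% of all genes called higher and 0.691% lower. The interaction was called and negative for 5 of 14 and positive for none, against 8.73% and 8.69% of all genes. After scaling by adipocyte markers, 1 of the 14 enzymes (Sc5d) was called lower and 1 (Lbr) higher between the genotypes on HFD, where 0.878% of all genes were called lower and 58.0% higher and the list median was 0.49. With the diet in WT 1 was then called, Lbr, which was lower, against 16.7% of all genes called lower and 0.473% higher. On that scale the interaction was called for 1, Lbr, and was positive, against 26.7% of all genes, with a list median of 0.19. With the same total it was called and negative for 3 and positive for 1, against 3.29% and 13.9% of all genes. With the WT HFD pair as 1 sample, the list median was −1.01 between the genotypes on HFD, and the calls of Acat2, Ggps1, Dhcr7 and Ebp ended. With the diet in WT the median was 1.02 in that fit, and the calls of Dhcr7, Hsd17b7, Mvd, Msmo1, Pmvk and Lbr ended. All 5 interaction calls ended too (Sc5d, Pmvk, Nsdhl, Hsd17b7 and Msmo1), with a list median of −1.23. Fewer of all genes were called as well in each of these comparisons.

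**Figure D4:**
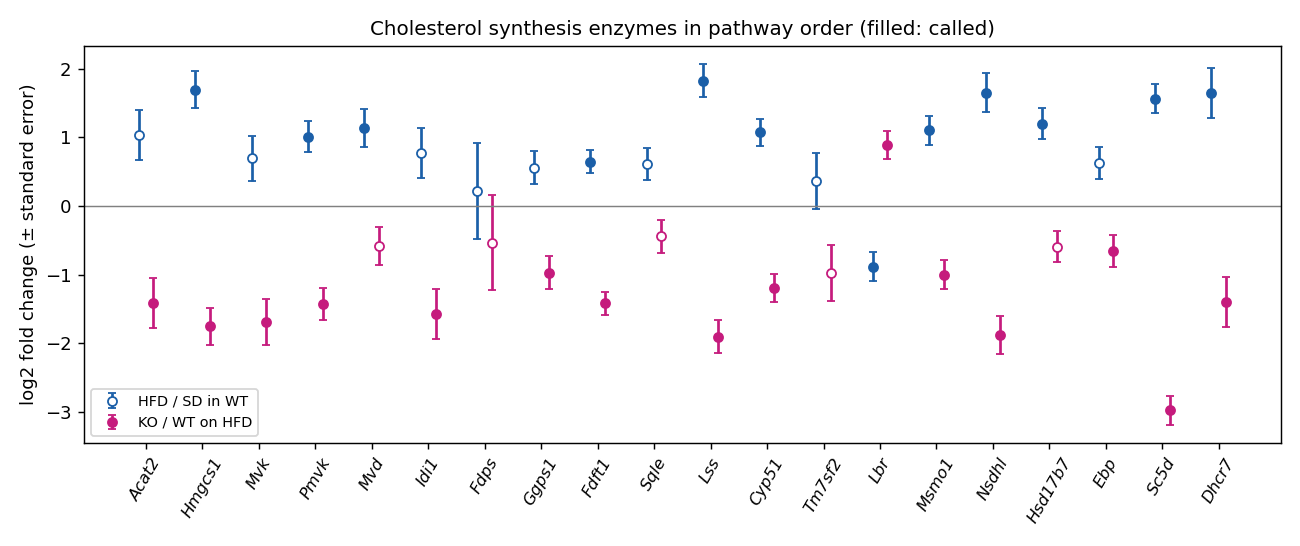
Fold change (log2, vertical axis, ± standard error) of 20 cholesterol synthesis enzymes in the order of the pathway from left to right, for HFD against SD in WT (blue) and KO against WT on HFD (magenta). Both comparisons use the WT HFD libraries. Filled points were called. Most enzymes lie above 0 in blue and below 0 in magenta, with Sc5d at −2.98 the lowest, while Lbr lies on the opposite sides.

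Of 5 other regulators of SREBP, 2 were called lower in KO on HFD and none higher, against 15.1% and 17.1% of all genes. Insig2, the paralogue of Insig1, had −1.26 ± 0.22 (limma adjusted p = 0.00079) and Srebf1, the gene of SREBP-1, −0.90 ± 0.23 (adjusted p = 0.0096). Neither was called lower after scaling to adipocyte markers, where 3 of the 5 were called higher, a share near the 58.0% of all genes. The list median was −0.50, against 0.09 over all genes. Insig2 also rose with HFD in WT (0.92 ± 0.22, adjusted p = 0.012), and its interaction was −1.70. The transport protein Scap and the proteases Mbtps1 and Mbtps2 were called in no comparison on the authors' scaling, and these were the 3 called higher relative to adipocyte markers. On HFD, Srebf1 was called between the genotypes and Srebf2 was not, and the difference between them was not tested. With the WT HFD pair as 1 sample, the calls of Srebf1 (limma adjusted p = 0.074) and of Insig2 with the diet ended.

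Of 10 genes of cholesterol uptake and transport within the cell, 2 were called lower and 4 higher in KO on HFD, against 15.1% and 17.1% of all genes, with a list median of 0.39. Vldlr, a receptor for triglyceride-rich lipoproteins, had −1.65 ± 0.22 (limma adjusted p = 0.00012), and Npc2, which carries cholesterol out of lysosomes, −1.24 ± 0.17. Npc1, of the same list, went the other way (1.00 ± 0.19, adjusted p = 0.0015). With HFD in WT, which shares the WT HFD libraries, 2 of 10 were called higher, against 8.74% of all genes: Vldlr by 2.11 ± 0.22 and Npc2 by 1.49 ± 0.17. Relative to adipocyte markers, Vldlr alone was called higher with the diet and 2, Scarb1 and Mylip, lower, against 0.473% and 16.7% of all genes. After scaling to equal totals there were 2 calls in each direction, against 2.50% and 19.0%. Vldlr read 886 and 1166 in WT on SD, 1150 and 1335 in KO on SD, 4470 and 4322 in WT on HFD, and 1791 and 1087 in KO on HFD. It was thus highest in WT on HFD, with overlap among the other groups. Scaled to adipocyte markers, 8 of the 10 genes were called higher in KO on HFD and none lower, against 58.0% of all genes called higher, with Vldlr at −0.16. With the WT HFD pair as 1 sample, the list median between the genotypes on HFD was 0.38. The calls of Stard3 and Mylip ended in that fit, which called fewer of all genes too. Lipa, the lysosomal lipase that frees cholesterol from its esters, was higher in KO on HFD (2.52 ± 0.18, limma adjusted p = 9.5e-07) and on SD (2.46 ± 0.18, adjusted p = 7.8e-06). It read 3007 to 5660 in the KO libraries and 658 to 934 in the WT libraries. The macrophage marker sums were separated in the same way, and the part of macrophage RNA was not tested.

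Of 8 genes of efflux, LXR signalling and esterification, 3 were called higher in KO on each diet (17.1% of all genes on HFD and 3.21% on SD) and none lower, and on HFD 8 were called higher relative to adipocyte markers, a scale on which 58.0% of all genes were called higher. The list median was 0.56 on HFD and 0.16 on SD. Soat1, which esterifies cholesterol, was higher by 3.85 on HFD and 2.61 on SD, and Nceh1, which hydrolyses the esters, by 4.79 and 3.15. The exporter Abcg1 was higher by 1.17 and 0.86, and of the 4 lists it was the 1 gene called with HFD in KO mice (1.10 ± 0.21, limma adjusted p = 0.032). The calls of Abcg1 on SD and with the diet ended with the WT HFD pair as 1 sample. Soat1 and Nceh1 are abundant in macrophages, and in these libraries the sum of 8 macrophage markers was also higher in all KO libraries (15885 to 29731) than in all WT libraries (2182 to 4785). The part of macrophage RNA in these values was not tested.

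Over the 8 libraries, Pearson's r of each member with the mean of the other 7 was 0.99 for Lss, 0.96 for Hmgcs1, 0.87 for Insig1 and Cyp51, 0.84 for Fdft1 and Sqle, 0.78 for Idi1 and −0.45 for Srebf2. These are descriptions over 4 pairs of libraries that share group, depth and cell makeup. Of 12085 genes ranked, all with a mean of at least 50, the 10 closest to the mean profile of the members were Dagla, Kidins220, Cst3, Ttc7b, Zfp207, Atp10a, Pttg1ip, Aplp2, Ppp1r3b and Sorl1, with r from 0.990 to 0.995. Nsdhl came 21st. No synthesis enzyme was among the 10, and the profile of high values in WT on HFD was shared by many genes.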

How the data were processed

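RNA of adipocytes from 8 mice (4 groups of 2) was depleted of ribosomal RNA and sequenced from a stranded kit. Per the study's methods and the submitters' processing notes, the authors trimmed reads, aligned them to GRCm38 with STAR 2.5.2b and counted exon reads per gene with featureCounts 1.5.1, leaving out reads over several genes or places. The deposited values are a score: the authors scaled each library's gene counts with its size factor and rounded the result. Raw reads could not be recovered from them, so count models (the authors named DESeq2) were not used. The depth came from the step between low values.

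Genes with a mean of at least 5 were tested with limma 3.58.1 (R 4.3.3) on log2(value + 1), in 1 fit of 4 group means with 4 residual degrees of freedom, and tested on simulated data. An exact permutation test of 2 against 2 cannot go below p = 0.333 and was not used. Figures and tables used Python 3.11.15. Gene structures came from GENCODE vM21 (30259 of 30387 IDs). Named from the other lists were mainly called genes with large changes, with some uncalled ones, and not every called gene is given with its value. The members and lists were chosen with earlier results of these data known. Some genes of the pathway lists are not reported here and are left out of their counts. Alternatives changed pseudocount, filter, scaling, samples and block, as given at the end.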

Additional observations from a re-analysis of the deposited data

Results flagged for a closer look

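The effect of the knockout on HFD minus that on SD was itself tested, and it passed the test in 5 of the 8 genes, in the direction of lower values in KO on HFD: by −2.17 (log2) in Insig1, −1.86 in Lss, −1.72 in Hmgcs1, −1.43 in Cyp51 and −0.88 in Fdft1. Per library, both WT HFD values were above the other 6 in each of these genes. This describes the values behind the calls and is no separate support for them. The sum of adipocyte markers was also highest in WT on HFD, and their part in these differences was not tested. With those sums set equal, the 5 values were −0.74, −0.45, −0.29, −0.01 and 0.54, none of them called. Groups of 2 are too small to look for single outlying libraries.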

How the results depend on the processing

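The number of the 8 genes called in the knockout comparison on HFD was 6 in the alternatives with the authors' or a whole-library scaling except scaling to the same total, where Srebf2 was added, and 0 were called on SD or with the diet in KO mice in any alternative. Scaled to the same sum of adipocyte markers, chosen after seeing the data, 1 was called in each of the comparisons on HFD, of the diet in WT and of the interaction. Without a filter on low values 3 were called, all lower, for the interaction, where 321 of 30387 genes were called lower. With the WT HFD pair averaged, the calls of Cyp51 and Fdft1 ended for the diet in WT. For the interaction those of Cyp51, Fdft1 and Hmgcs1 ended, and both comparisons called fewer of all genes too. With the same total, 4 were called in each of these comparisons, without Fdft1, and a fit of only the WT libraries called 6 for the diet, adding Sqle. Leaving out single libraries ended the calls of Cyp51 and Fdft1 for the diet in WT in some fits. Their values ran from 1.02 to 1.12 and from 0.61 to 0.68 over these fits. For the interaction, calls of Cyp51, Fdft1 and Hmgcs1 ended in some fits. Their values ran from −1.72 to −1.14, −0.95 to −0.80 and −2.30 to −1.13. The lone sample left in a group was assumed to vary like the others.

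The sign of values turned under marker scaling. On HFD the knockout then gave Fdft1 0.075, Cyp51 0.30 and Sqle 1.05, and on SD Hmgcs1 0.035, Sqle 0.046 and Lss 0.031. The diet in WT gave Idi1 −0.040, Fdft1 −0.18 and Sqle −0.21, and in KO Hmgcs1 0.58, Idi1 0.24, Fdft1 0.37, Lss 0.56 and Cyp51 0.24. The interaction gave Idi1 0.28, Fdft1 0.54 and Sqle 1.00. With the same total, the interaction of Sqle was 0.011, and with upper-quartile scaling Srebf2 on SD was −0.0073. Leaving out single libraries turned the sign of values of at most 0.24 in size. On SD the ranges were −0.15 to 0.073 for Hmgcs1, −0.19 to 0.13 for Sqle, −0.17 to 0.090 for Lss, −0.054 to 0.52 for Cyp51 and −0.012 to 0.11 for Srebf2. With the diet in KO they were −0.60 to 0.56 for Hmgcs1, −0.43 to 0.35 for Lss and −0.052 to 0.25 for Srebf2, and in WT −0.22 to 0.027 for Srebf2. The cause was not tested.

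With the replicate block, 6, 0, 5, 0 and 5 of the 8 genes were called in the order of the report's tests (knockout on HFD and SD, diet in WT and KO, interaction), as without it. Across all genes the block moved the calls of the diet in KO from 202 to 112. Differences within pairs correlated between groups at −0.11 to 0.04, so the samples share only a number. With 2 mice per group, the 95% intervals of the members' differences between groups reached from 0.37 (Srebf2) to 0.78 (Idi1) on either side on the log2 scale, and those of the interaction from 0.52 (Srebf2) to 1.11 (Idi1).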
